A study of Mus musculus with 2 samples.

Results

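The 3 D-type cyclin genes Ccnd1, Ccnd2 and Ccnd3 and the Kip family inhibitor genes Cdkn1b and Cdkn1c were followed through the cell classes of the mouse eye cup at e13.5 of embryonic development. The 5 genes were chosen by name and each was found once among the 31053 genes of the deposited feature list. Their unique molecular identifiers (UMIs, 1 for each captured transcript) were summed for each cell class and library. The control library came from Myrf fl/fl eye cups, in which both copies of the myelin regulatory factor gene carry loxP sites but no recombinase is present. The mutant library came from Rx>cre Myrf fl/fl eye cups, in which Cre driven by the promoter of the early eye field gene Rx deletes Myrf. Each library pooled 3 eye cups with cornea, lens and optic nerve removed. There was 1 library for each genotype, so no difference between genotypes was tested and all intervals below cover counting error only.

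D-type cyclins are the regulatory partners of the kinases CDK4 and CDK6. The complexes phosphorylate the retinoblastoma protein and its relatives, which releases E2F transcription factors and lets a cell pass from G1 into S phase. Cdkn1b encodes p27Kip1 and Cdkn1c encodes p57Kip2, which bind cyclin and kinase complexes and hold them inactive, and which mark cells leaving the cycle in many tissues. Cyclin D1 is the D cyclin best known from the developing retina, where mice without it have a thin, underpopulated retina. Cdkn1c is an imprinted gene, expressed from the maternal copy.

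All 5 genes were located on build GRCm38 by their identifiers. Ccnd1 (ENSMUSG00000070348) lies on the minus strand at chr7:144929931-144939925, and Cdkn1c (ENSMUSG00000037664) on the same strand at chr7:143458339-143461050. Ccnd2 (ENSMUSG00000000184) lies on the minus strand at chr6:127125162-127152193, and Cdkn1b (ENSMUSG00000003031) on the plus strand at chr6:134920401-134925513. Ccnd3 (ENSMUSG00000034165) lies on the plus strand at chr17:47505051-47599691. Upstream sequences from RefSeq (GRCm38.p6) were at hand for 2 of the 5 genes, Ccnd3 and Cdkn1b, and are shown with that of Cdkn1a, the remaining member of the Cip/Kip family, whose level in pigment epithelium is given further on. Each run holds the 250 bases before a transcript start on the plus strand, and capitals mark GC boxes (GGGCGG) and CCAAT boxes on either strand.
Cdkn1b, chr6:134920151-134920400: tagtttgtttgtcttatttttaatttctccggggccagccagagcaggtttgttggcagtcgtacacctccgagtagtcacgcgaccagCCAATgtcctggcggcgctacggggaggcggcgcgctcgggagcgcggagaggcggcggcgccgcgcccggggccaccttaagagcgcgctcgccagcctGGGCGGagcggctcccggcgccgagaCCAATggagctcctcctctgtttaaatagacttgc
Cdkn1a, chr17:29093519-29093768: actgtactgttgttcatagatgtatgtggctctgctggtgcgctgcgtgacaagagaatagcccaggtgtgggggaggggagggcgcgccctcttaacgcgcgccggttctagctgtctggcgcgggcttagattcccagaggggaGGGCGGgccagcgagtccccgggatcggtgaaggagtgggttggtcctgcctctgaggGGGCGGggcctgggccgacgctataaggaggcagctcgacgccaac
Ccnd3, chr17:47504801-47505050: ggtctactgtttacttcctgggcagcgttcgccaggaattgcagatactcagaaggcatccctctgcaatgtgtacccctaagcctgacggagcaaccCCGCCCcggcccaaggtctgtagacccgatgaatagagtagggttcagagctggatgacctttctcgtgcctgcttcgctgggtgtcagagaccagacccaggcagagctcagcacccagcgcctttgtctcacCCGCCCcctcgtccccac
The Cdkn1b run held 1 GC box and 2 CCAAT boxes, while the Cdkn1a and Ccnd3 runs held 2 GC boxes each and no CCAAT box. A GC box was present in 32.7% and a CCAAT box in 33.8% of the 32851 upstream sequences of the same length in the table. The letters of a TATA box (TATAAA, in 12.4% of all), of an E box (CACGTG, in 6.02%) and of an E2F site (TTTGGCGC, in 0.417%) were not in these 3 windows. Ccnd3 and Cdkn1a each have 2 starts in the table, and 3′ counts do not tell which was used.

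The control library held 6039 barcodes with a median of 10083 UMIs and the mutant library 6754 with a median of 10638, of which 5468 and 6300 cells were kept. Clustering without the 5 genes gave 28 clusters, and 25 of them could be named from marker lists, giving 15 classes with at least 20 cells in each library. Another 3 clusters (733 control and 613 mutant cells, median 760 and 775 UMIs) stayed unnamed. No photoreceptor, optic stalk or lens class was found. The melanocyte-like cluster had as many Schwann cell markers as melanocyte markers among its 10 leading genes. Both libraries shared 72 barcodes, and leaving them out left each recomputed value within its counting interval. Myrf itself had 155 UMIs in control and 30 in mutant RPE-like cells (74.7 and 20.01 counts per 1000000 UMIs of the class, CPM). The place of the deleted part relative to the counted 3′ ends was not checked, so this difference is only a partial check of the labels.

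Ccnd1 was highest in the neural retina. In retinal progenitor-like cells it stood at 714 CPM in control (95% Poisson interval 701 to 727) and 829 in mutant cells (815 to 843). Ciliary margin-like cells followed with 541 and 542 CPM, and neurogenic precursor-like cells with 456 and 486. These 3 classes held the highest levels in both libraries, and in control no neighbours among them had overlapping intervals. Ganglion cell-like cells, the first neurons born in the retina, had 59.9 and 62.8 CPM, so the progenitor level was 11.9-fold higher in control and 13.2-fold higher in the mutant. That class joined a shallow cluster with 195 and 271 CPM and a deep one with 34.6 and 16.3 CPM, so the fold depends on which of them is taken. Amacrine or horizontal-like cells had 24.7 and 33.4 CPM. Outside the retina the highest levels were 307 and 362 CPM in Schwann or neural crest glia-like cells and 278 and 240 CPM in endothelium-like cells. RPE-like cells, the retinal pigment epithelium, had 67.9 and 68.7 CPM, in the range of pericyte-like cells (66.5 and 66.0).

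Detection was compared after thinning cells to 3000 UMIs each, with shallower cells left out, and the order of classes was not the same as by CPM. After thinning, Ccnd1 was detected in 82.8% of the 1298 progenitor-like cells left in control and in 85.1% of the 1359 left in the mutant (91.8% and 92.2% before). In red blood cell-like cells, where little Ccnd1 is to be looked for, the shares were 3.37% of 178 and 4.84% of 413 thinned cells (20.2% and 21.5% before thinning, at medians of 22477 and 22706 UMIs). Haemoglobin genes took 85.2% and 81.8% of the UMIs of that class, so fewer UMIs were left there for any other gene. Ganglion cell-like cells had a Ccnd1 UMI in 13.3% of 249 and 12.5% of 319 thinned cells, and RPE-like cells in 9.85% of 132 and 16.05% of 81. Endothelium-like cells (57.7% and 51.0%) had a higher share than neurogenic precursor-like cells (39.6% and 36.2%), although their CPM was lower.

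**Figure D1:**
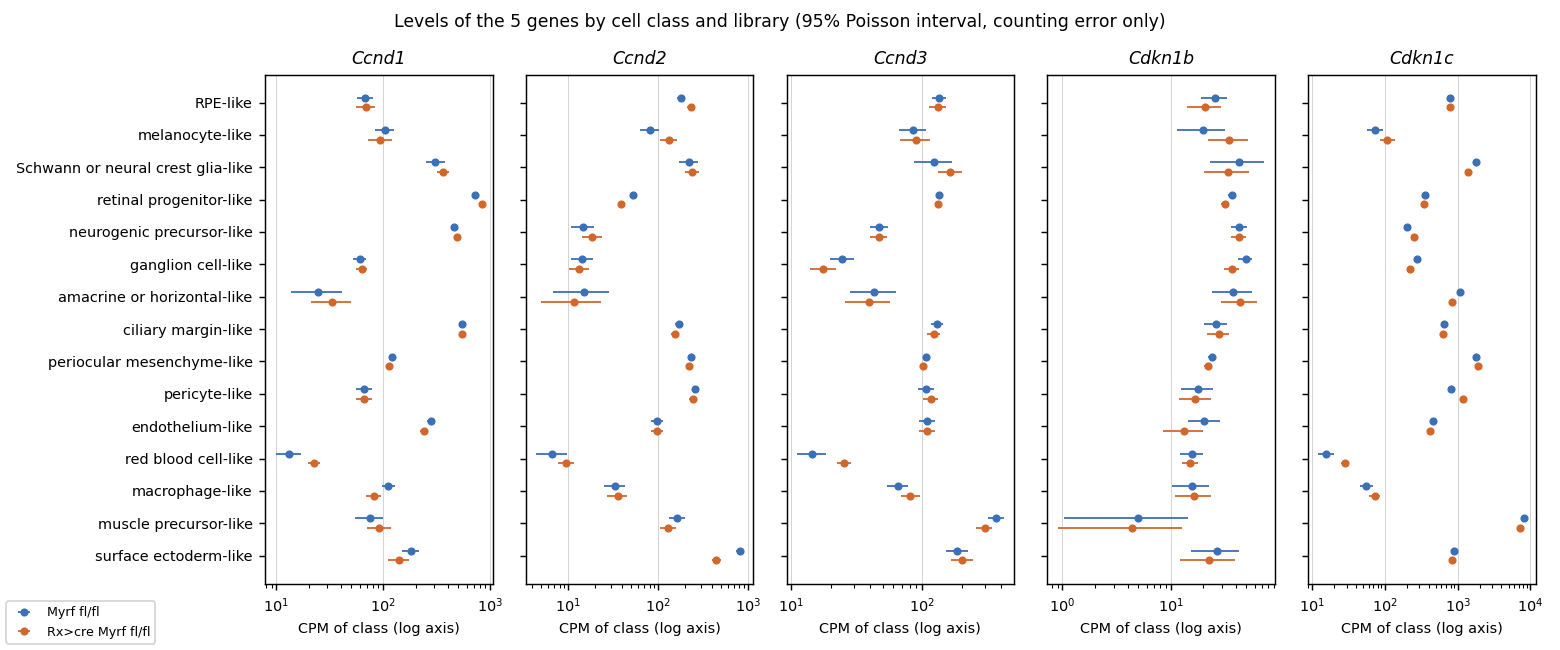
Levels of Ccnd1, Ccnd2, Ccnd3, Cdkn1b and Cdkn1c in CPM (log axis) for 15 cell classes, with control in blue and mutant in orange. Points are the summed UMIs of a class and bars 95% Poisson intervals. Ccnd1 peaks in retinal progenitor-like cells (714 and 829 CPM), Ccnd2 in surface ectoderm-like cells (804 and 444) and Cdkn1c in muscle precursor-like cells (8226 and 7132), while Cdkn1b stays under 50 CPM in every class.

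Ccnd2 was highest in surface ectoderm-like cells, at 804 CPM in control (736 to 877) and 444 in mutant cells (391 to 502). Pericyte-like cells had 256 and 242 CPM, periocular mesenchyme-like cells 229 and 222, and Schwann or neural crest glia-like cells 218 and 237. Neighbours among these 3 classes had overlapping intervals in control. RPE-like cells carried 179 CPM in control (162 to 198) and 231 in the mutant (207 to 256). Ciliary margin-like cells, at the rim of the retina, had 168 and 154 CPM, whereas progenitor-like cells had 52.6 and 38.5. The mesenchyme level was 4.36-fold the progenitor level in control and 5.77-fold in the mutant. In the neurogenic precursor-like, ganglion cell-like and amacrine or horizontal-like classes Ccnd2 lay between 11.6 and 18.5 CPM in both libraries.

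Ccnd3 was the most even of the D cyclins. Muscle precursor-like cells had the highest level, 365 CPM in control (319 to 417) and 297 in the mutant (258 to 341). That was 2.71-fold and 2.25-fold the level in progenitor-like cells (135 and 132 CPM). RPE-like cells had 134 and 131 CPM, ciliary margin-like cells 130 and 122, and periocular mesenchyme-like cells 106 and 101. From the third to the ninth class in the control order no neighbouring intervals were apart. Ccnd3 was lower in neurons and their precursors, with 46.8 and 46.3 CPM in neurogenic precursor-like and 24.5 and 17.6 in ganglion cell-like cells. The lowest level was in red blood cell-like cells in control (14.4 CPM, against 25.2 in the mutant) and in ganglion cell-like cells in the mutant.

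The make-up of the D cyclin UMIs therefore changed from class to class. UMIs are counted at 3′ ends, so no length correction was made, and capture may differ between genes: the shares are compared between classes and are not ratios of transcripts. Ccnd1 took 79.2% of D cyclin UMIs in control and 82.9% in mutant progenitor-like cells, and 88.1% and 88.2% in neurogenic precursor-like cells. In ciliary margin-like cells the Ccnd1 share was 64.5% and 66.2%, with 20.1% and 18.8% from Ccnd2. RPE-like cells differed from these neural classes, with 17.8% Ccnd1, 47.0% Ccnd2 and 35.1% Ccnd3 in control (95% exact binomial intervals 15.2 to 20.7, 43.5 to 50.6 and 31.8 to 38.6). In mutant RPE-like cells the shares were 15.97%, 53.6% and 30.4%. Most of these UMIs came from deep cells. At a finer resolution the deep RPE-like cluster had 99, 328 and 240 UMIs of Ccnd1, Ccnd2 and Ccnd3 in control. The shallow cluster had 43, 44 and 38, so Ccnd2 hardly led there. In the mutant Ccnd2 led in both, with 89, 300 and 184 UMIs in the deep and 14, 46 and 12 in the shallow cluster. Ccnd2 was also the largest share in periocular mesenchyme-like (50.4% and 51.1%), pericyte-like (59.7% and 57.1%) and surface ectoderm-like cells (68.9% and 56.6%). Ccnd3 led in muscle precursor-like cells (60.7% and 57.3%). It also led in amacrine or horizontal-like cells (52.0% of 50 and 46.6% of 58 UMIs) and red blood cell-like cells (42.4% and 44.0%). The D cyclin with the largest share was the same in both libraries in 14 of 15 classes. The exception was the melanocyte-like class, where Ccnd1 led with 38.4% of 232 UMIs in control and Ccnd2 with 41.8% of 208 in the mutant. In mutant macrophage-like cells Ccnd1 and Ccnd3 tied at 144 UMIs each.

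**Figure D2:**
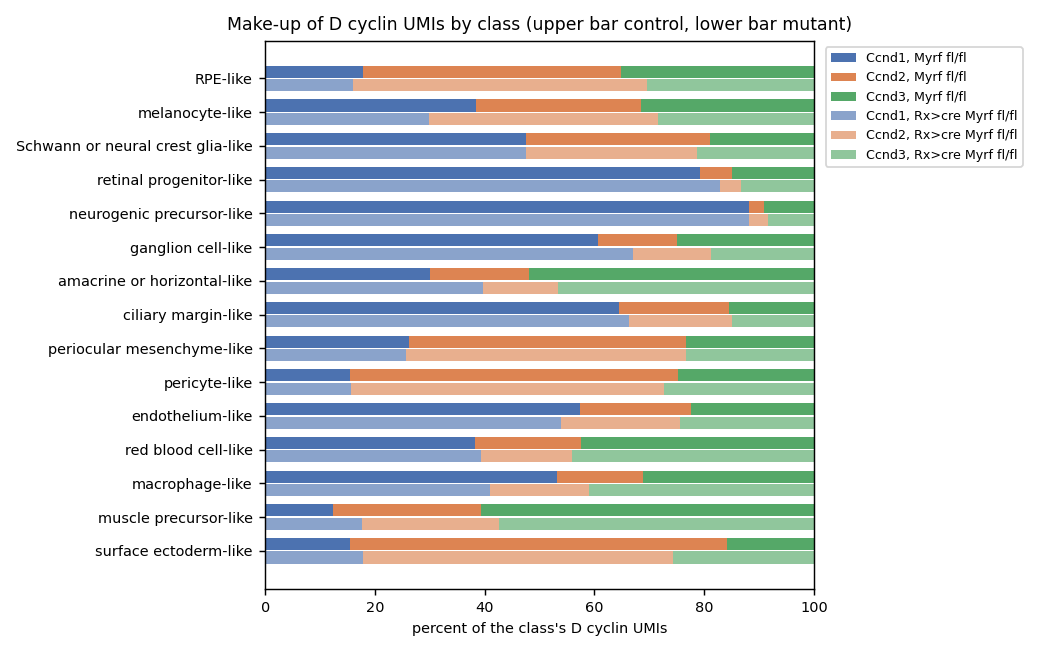
Percent of D cyclin UMIs from Ccnd1 (blue), Ccnd2 (orange) and Ccnd3 (green) in 15 classes, the upper bar of each class for control and the lower, paler bar for the mutant. Ccnd1 fills most of the bar in retinal progenitor-like (79.2% and 82.9%) and neurogenic precursor-like cells. Ccnd2 is the largest part in RPE-like (47.0% and 53.6%) and mesenchymal classes. Ccnd3 is the largest part in muscle precursor-like (60.7% and 57.3%), amacrine or horizontal-like and red blood cell-like cells.

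Cdkn1c had the widest range of the 5 genes. Muscle precursor-like cells reached 8226 CPM in control (7999 to 8458) and 7132 in the mutant (6933 to 7334), 22.8-fold and 20.8-fold the level in progenitor-like cells. Periocular mesenchyme-like cells had 1790 and 1894 CPM, and this class alone gave 61.7% of the control and 67.8% of the mutant Cdkn1c UMIs. Schwann or neural crest glia-like cells had 1764 and 1403 CPM. Within the retina, amacrine or horizontal-like cells had the most, 1077 and 842 CPM, of which a single cell gave 22.1% and 14.7%. RPE-like cells (799 and 788 CPM) and ciliary margin-like cells (656 and 638 CPM) came next. Progenitor-like cells had 360 and 344 CPM, ganglion cell-like cells 277 and 223, and neurogenic precursor-like cells 203 and 251. Melanocyte-like cells had 74.1 and 109 CPM, so the pigmented classes differed, and 62.5% of the 72 mutant UMIs there came from 1 cell. In RPE-like cells Cdkn1c was detected in 80.3% of control and 81.5% of mutant cells after thinning (73.9% and 71.6% before).

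Cdkn1b transcripts were sparse in every class. Ganglion cell-like cells had the highest control level, 49.1 CPM (42.2 to 56.8), and 36.7 in the mutant (31.4 to 42.6). Neurogenic precursor-like cells had 43.1 and 42.8 CPM and progenitor-like cells 36.6 and 31.7. RPE-like cells had 25.5 and 20.7 CPM from 53 and 31 UMIs. Periocular mesenchyme-like cells had 24.1 and 22.2 CPM, and the ganglion cell-like level was 2.03-fold and 1.65-fold of it. This fold depends on the cluster taken. The shallow ganglion cell-like cluster had 22.3 and 30.5 CPM, from 13 and 26 UMIs, and the deep one 54.1 and 38.0. In no case were the intervals of neighbours in the order of classes apart, in either library. After thinning, 14.1% of neurogenic precursor-like cells had a Cdkn1b UMI in each library, 9.32% and 8.24% of progenitor-like cells, and 7.58% and 6.17% of RPE-like cells. Red blood cell-like cells had one in 6.18% and 6.05% after thinning, near the RPE-like share and that of periocular mesenchyme-like cells (6.90% and 5.78%). By CPM, red blood cell-like cells had 15.6 (12.1 to 19.9) and 15.1 (12.8 to 17.7), under the mesenchyme intervals (22.0 to 26.4 and 20.4 to 24.2). Muscle precursor-like cells had the least, 4.96 and 4.37 CPM. Red blood cell-like cells are not a known background for Cdkn1b, and whether the RPE-like or mesenchyme level lies above background was not tested. Of all Cdkn1b and Cdkn1c UMIs, Cdkn1c made up 84.9% and 85.9% in ganglion cell-like and 82.5% and 85.4% in neurogenic precursor-like cells. The share was 96.9% and 97.4% in RPE-like and 98.7% and 98.8% in periocular mesenchyme-like cells. The ganglion cell-like share mixed clusters that differed. In control the shallow cluster had 426 Cdkn1c and 13 Cdkn1b UMIs, and the deep one 600 and 169.

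Across the 15 classes the profiles of Ccnd2 and Ccnd3 were alike, with a Pearson correlation of log2(CPM + 1) of 0.84 in control and 0.83 in the mutant. Ccnd3 and Cdkn1c reached 0.73 and 0.66, and Ccnd2 and Cdkn1c 0.63 and 0.59. Ccnd1 and Ccnd2 reached 0.36 and 0.26, Ccnd1 and Cdkn1c 0.21 and 0.19, and Cdkn1b and Cdkn1c -0.12 and -0.31. These are descriptions over 15 classes that share a library, its depth and its free RNA. Among 8473 genes with at least 500 UMIs, the control profiles most like Ccnd1 were those of Clspn (0.89 in control, 0.79 in the mutant), Cdca7l (0.88 and 0.84) and Mis18a (0.87 and 0.74). Nearest to Ccnd2 were Trip6 (0.93 and 0.91), Pabpc4l (0.93 and 0.82) and Lrp4 (0.92 and 0.89), and nearest to Ccnd3 were Tcf7l2 (0.91 and 0.90), Rest (0.89 and 0.88) and Rpl41 (0.89 and 0.88). Cdkn1b was nearest to Celsr2 (0.89 and 0.89), Epha5 (0.88 and 0.90) and Uchl1 (0.87 and 0.74). Cdkn1c was nearest to Mtss1l (0.90 and 0.81), Ccdc8 (0.89 and 0.85) and Zfp651 (0.88 and 0.71).

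The 4 progenitor-like clusters differed in how much S and G2/M phase RNA they held, which allowed the 5 genes to be set against that RNA within a class. Such a ranking does not tell cycle phase from how often cells divide. Thinned cells were ranked by their UMIs from the S and G2/M gene lists of Seurat, which hold none of the 5 genes, and cut into groups of equal size. In progenitor-like cells Ccnd1 was nearly level between the lowest and the highest group, at 712 and 733 CPM in control and 836 and 880 in the mutant. Ccnd3 was also level, at 119 and 117 CPM in control and 115 and 120 in the mutant. Ccnd2 was lower where proliferation genes were high, with 85.6 and 45.5 CPM in control (log2 ratio -0.90, interval -1.39 to -0.44) and 77.3 and 26.5 in the mutant (-1.52, -2.13 to -0.99). Cdkn1b was higher there, with 23.9 and 50.9 CPM in control (1.07, 0.45 to 1.76) and 19.9 and 44.9 in the mutant (1.15, 0.50 to 1.89). Cdkn1c was lower there, with 394 and 305 CPM in control (-0.37, -0.56 to -0.18) and 408 and 325 in the mutant (-0.33, -0.52 to -0.15). Both libraries thus gave the same order for Ccnd2, Cdkn1b and Cdkn1c, each with an interval without 0. Between the shallow clusters (0.67% and 1.57% of UMIs from the lists in control) Ccnd2 went from 119 to 63.7 CPM and Cdkn1c from 448 to 379. Between the deep clusters (0.96% and 1.94%) Ccnd2 rose from 33.4 to 50.2 CPM, and Cdkn1c was 347 and 348. In the mutant the deep clusters had 23.3 and 35.4 CPM of Ccnd2. The groups mixed clusters, and cluster make-up was not separated from S and G2/M phase RNA. The sizes depended on the settings: the control Ccnd2 ratio was -1.64 in cells thinned to 2000 UMIs and -0.38 at 5000 UMIs, and with the S list alone the Cdkn1b ratio was 0.44 in control and 0.27 in the mutant. In periocular mesenchyme-like cells Ccnd2 was again lower in the highest group, with 224 and 173 CPM in control (-0.37, -0.62 to -0.12) and 245 and 170 in the mutant (-0.52, -0.74 to -0.31). Cdkn1c did not follow the proliferation lists there (1804 and 1769 CPM in control, 1859 and 1776 in the mutant). Its control and mutant ratios were -0.46 and -0.58 in RPE-like, -0.57 and -0.73 in ciliary margin-like and -1.16 and -0.68 in endothelium-like cells. Each of these had an interval without 0. Higher ratios with such an interval were seen in control ganglion cell-like (1.00), mutant red blood cell-like (1.46) and mutant macrophage-like cells (3.32), in that library only.

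Neurogenic precursor-like cells, marked by Atoh7 and Neurog2, had most Ccnd1 in the middle of the ranking. Control cells had 116, 978 and 258 CPM from the lowest to the highest group, and mutant cells 79.7, 717 and 551. The lowest group was under the highest in both libraries (log2 ratio of highest over lowest 1.13, interval 0.47 to 1.88, and 2.73, 2.14 to 3.505). Cdkn1c in these cells was 262 CPM in the lowest and 129 in the highest group of control cells, and 243 and 221 CPM in the mutant.

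**Figure D3:**
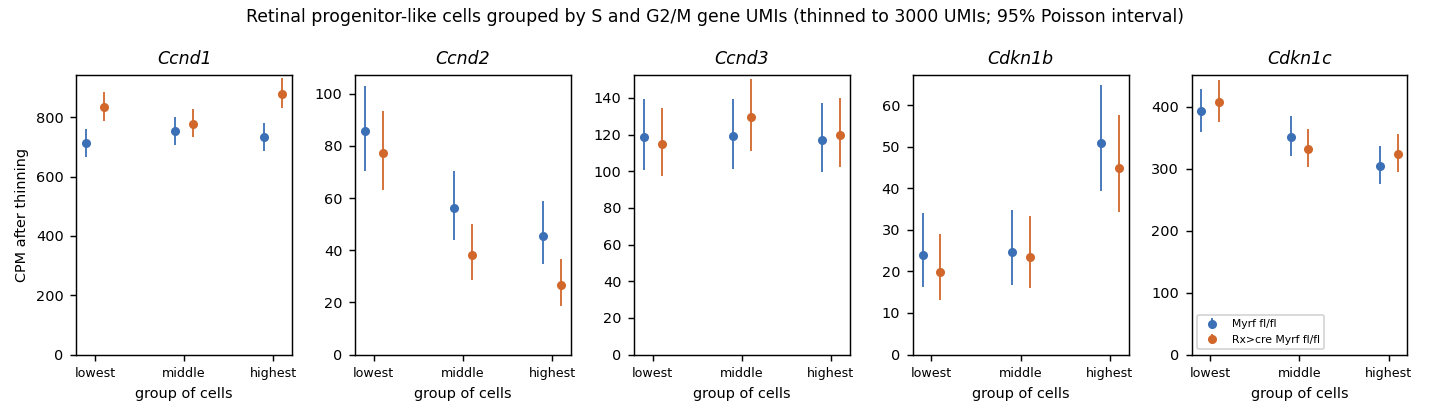
CPM of the 5 genes in retinal progenitor-like cells thinned to 3000 UMIs and ranked by their UMIs from S and G2/M gene lists, with control in blue (at least 432 cells a group) and mutant in orange (453 cells), with 95% Poisson intervals. From the lowest to the highest group Ccnd2 goes from 85.6 to 45.5 CPM in control and from 77.3 to 26.5 in the mutant, Cdkn1b goes from 23.9 to 50.9 and from 19.9 to 44.9, and Ccnd1 and Ccnd3 stay nearly level.

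Detection of the Kip genes was compared between progenitor-like cells with and without a Ccnd1 UMI. After thinning, 54.3% of 1075 control progenitor-like cells with a Ccnd1 UMI also had a Cdkn1c UMI, against 51.1% of 223 cells without one. The difference was 3.205 percentage points (interval -4.18 to 10.6) in control and 1.61 points (-5.99 to 9.31) in the mutant. For Cdkn1b the difference was 1.51 points (-3.19 to 5.26) and 0.38 points (-4.49 to 4.13). No difference was detectable at this depth. In cells thinned to 5000 UMIs the Cdkn1c difference had the opposite sign, at -6.41 points in control and -6.57 in the mutant. In mutant ganglion cell-like cells 57.5% of 40 cells with a Ccnd1 UMI had a Cdkn1c UMI (40.9 to 73.0), against 29.7% of 279 without one (24.4 to 35.5). Control ganglion cell-like cells gave 27.3% of 33 (13.3 to 45.5) and 32.4% of 216 (26.2 to 39.1).

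The genotypes were compared as the log2 ratio of mutant to control CPM in each class, with 1 UMI added to each side and an exact conditional binomial interval. A gene was called different where it changed over 1.5-fold with an interval without 0, among genes with at least 100 UMIs over both libraries in that class. Of the 75 comparisons of the 5 genes, 63 had enough UMIs, and 5 were called. None of these 5 calls was in a neural retina class or in RPE-like cells. Over all genes with enough UMIs, the share called ran from 1.18% in retinal progenitor-like to 33.7% in red blood cell-like cells. The interval lay above 0 in 10, below 0 in 14 and across 0 in 51 of the 75. Over all genes with enough UMIs, the share with an interval without 0 ran from 10.1% in ciliary margin-like to 55.5% in red blood cell-like cells. Since each genotype was 1 library, these calls compare libraries.

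In RPE-like cells, where Myrf is expressed, 0 of the 4 genes with enough UMIs were called, against 7.22% of all 4430 genes tested in that class. Ccnd1 had a ratio of 0.02 (-0.37 to 0.39), Ccnd3 of -0.03 (-0.31 to 0.23) and Cdkn1c of -0.02 (-0.13 to 0.09). Ccnd2 was higher in the mutant by 0.36 (0.15 to 0.58), short of 1.5-fold. Cdkn1b, with 84 UMIs in all, had a ratio of -0.29 (-0.99 to 0.36). The RPE-like class held 249 control and 155 mutant cells, 4.55% and 2.46% of the kept cells. At a finer resolution it split into a shallow cluster (medians 1082 and 1206 UMIs) and a deep one (15449 and 17203 UMIs). Ccnd2 was higher in the mutant in both, at 152 and 389 CPM in the shallow and 184 and 217 CPM in the deep cluster. Cdkn1c differed little in the deep cluster (796 and 801 CPM). Ccnd1 had 148 and 118 CPM in the shallow and 55.4 and 64.4 CPM in the deep cluster. A single cell gave 16.5% of the mutant Ccnd1 UMIs of the class. With a mitochondrial limit of 5% the Ccnd2 ratio was 0.019. The Ccnd1 ratio did not hold at 0.02 under other settings: it was -0.40 and -0.49 with upper limits of 20000 and 2000 UMIs, -0.55 with the mitochondrial limit, -0.54 as a mean over cells and -0.70 with classes named cell by cell. It was -1.07 in cells of female and 0.67 in cells of male embryos, from 41 and 64 control and 15 and 45 mutant cells.

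In retinal progenitor-like cells, 0 of 5 genes were called, against 1.18% of 10091 genes. Ccnd1 was higher in the mutant by 0.21 (0.18 to 0.25) and was so in all 4 clusters of the class (0.06 to 0.30). Ccnd2 was lower by 0.45 on the log2 scale (ratio -0.45, -0.60 to -0.30), again in all 4 clusters (-0.52 to -0.37). Cdkn1b had a ratio of -0.21 (-0.38 to -0.03), Cdkn1c of -0.07 (-0.12 to -0.01) and Ccnd3 of -0.03 (-0.11 to 0.06). Proliferation lists took 1.47% of control and 1.46% of mutant UMIs in the class.

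The other neural classes also had no call among the 5 genes, against 1.73% of genes in neurogenic precursor-like, 1.79% in ganglion cell-like, 3.04% in amacrine or horizontal-like and 1.41% in ciliary margin-like cells. Cdkn1c was higher in the mutant by 0.30 in neurogenic precursor-like cells (0.16 to 0.45). It had a ratio of -0.36 in amacrine or horizontal-like cells (-0.52 to -0.19) and -0.31 in ganglion cell-like cells (-0.44 to -0.18). The ganglion cell-like class joined a shallow and a deep cluster that differed. In the shallow cluster Cdkn1c had 730 CPM in control and 334 in the mutant (-1.13, -1.35 to -0.91) and in the deep one 192 and 198 (0.05, -0.11 to 0.20). Ccnd1 was higher in the mutant in the shallow cluster (0.47, 0.14 to 0.81) and lower in the deep one (-1.08, -1.56 to -0.62). In control, 14.3% of the Cdkn1c UMIs of the class came from 1 cell. Ciliary margin-like cells gave ratios between -0.13 and 0.09 for the 5 genes, each with an interval that spanned 0.

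**Figure D4:**
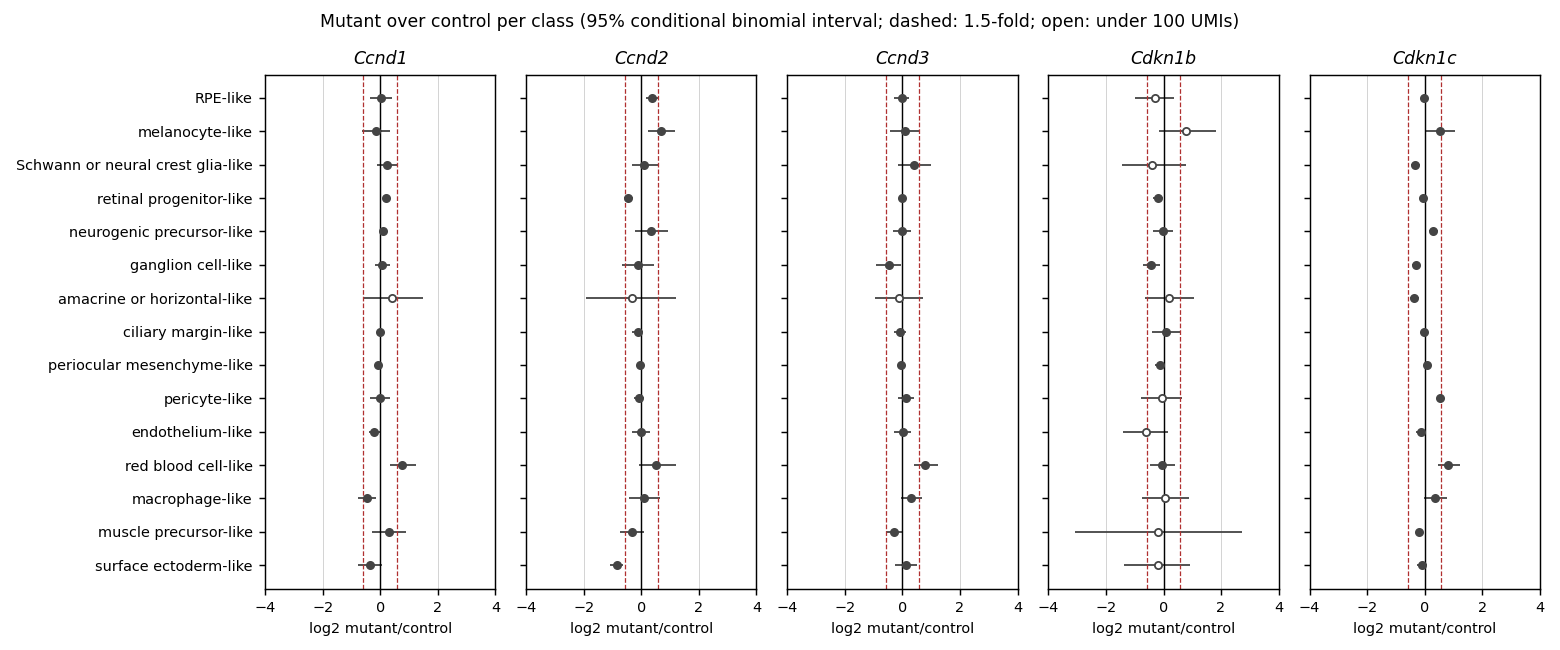
Log2 ratio of mutant to control CPM for the 5 genes in 15 classes, with 95% conditional binomial intervals, dashed lines at 1.5-fold and open points under 100 UMIs. Most points lie between the dashed lines, and those outside with an interval without 0 are Ccnd2 in surface ectoderm-like (-0.85) and melanocyte-like cells (0.69) and Ccnd1, Ccnd3 and Cdkn1c in red blood cell-like cells.

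Ccnd2 in surface ectoderm-like cells was the call with the narrowest interval, with 515 control and 254 mutant UMIs and a ratio of -0.85 (-1.08 to -0.64). In that class 1 of the 4 genes tested was called, against 7.62% of all genes, and the median depth was 3172 UMIs in control and 1671 in mutant cells. In cells thinned to 3000 UMIs, Ccnd2 was detected in 70.3% of 37 control and 66.7% of 27 mutant cells, against 79.7% and 55.1% of all cells of the class. In melanocyte-like cells Ccnd2 was called higher (0.69, 0.22 to 1.17), from 70 and 87 UMIs, of which 1 mutant cell gave 20.7%, in a class with 3.42% of genes called. In red blood cell-like cells Ccnd1 (0.76, 0.35 to 1.24), Ccnd3 (0.78, 0.39 to 1.23) and Cdkn1c (0.82, 0.45 to 1.24) were called higher. There 33.7% of genes were called, 603 of 623 of them higher, and the median ratio of all genes was 0.42, while the haemoglobin share was lower in the mutant. With each cell weighted the same, the ratios were -0.06, -0.09 and -0.40, and that of Ccnd2 in melanocyte-like cells was -0.32, so these 4 calls change direction with the weighting of cells.

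Elsewhere no member was called. Cdkn1c in pericyte-like cells came closest, with 824 and 1200 CPM and a ratio of 0.54 (0.45 to 0.63), in a class with 2.37% of genes called. Ccnd1 had a ratio of -0.46 in macrophage-like cells (-0.78 to -0.14, with 5.5% of genes called) and -0.21 in endothelium-like cells (-0.40 to -0.02, 2.38%). In periocular mesenchyme-like cells (1.73%) all 5 ratios lay between -0.12 and 0.08. In muscle precursor-like cells (5.08%) Cdkn1c had a ratio of -0.21 (-0.26 to -0.15), and in Schwann or neural crest glia-like cells (5.08%) of -0.33 (-0.49 to -0.17), from 22 control and 38 mutant cells.

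Some other genes of the G1 pathway, S phase and mitosis were called in RPE-like cells. Of 29 such genes, 11 had at least 100 UMIs, 4 were called higher in the mutant and none lower, against 7.22% of all genes called in the class (113 higher and 207 lower), with a median ratio of 0.12 against -0.02 over all genes tested. Cdkn1a, which encodes the inhibitor p21Cip1 and is a well known target of p53, had 3 UMIs in control and 114 in mutant cells (1.45 and 76.0 CPM, ratio 5.31, interval 4.13 to 8.02). It reached 100 UMIs only through the mutant library, so its call gives no support to the count. Its UMIs lay in 3 of 249 control cells and in 17 of 155 mutant cells, with at most 21 in 1 cell, and 104 of them in the deep cluster. Outside RPE-like cells it reached 100 UMIs only in muscle precursor-like, periocular mesenchyme-like and macrophage-like cells, so no other class could be called. It was called lower in muscle precursor-like (466 and 219 CPM) and periocular mesenchyme-like cells (6.08 and 3.60 CPM). In macrophage-like cells it was not called (40.1 and 44.5 CPM). Cdk1, the mitotic kinase, had 106 and 186 UMIs in RPE-like cells (1.27, 0.93 to 1.64). Ccna2, the cyclin of S and G2 phase, had a ratio of 0.84 (0.36 to 1.35) and Ccnb1, the mitotic cyclin, of 0.74 (0.24 to 1.24). Cks1b, a cofactor in p27Kip1 turnover, was at 0.52 (0.30 to 0.75) and Cdk4, the partner of the D cyclins, at 0.11 (0.01 to 0.22), both under 1.5-fold. Cdkn2d, E2f4, E2f5, E2f6 and Tfdp1 had intervals that spanned 0. S phase genes took 0.133% of UMIs in control and 0.191% in mutant RPE-like cells, and G2/M genes 0.286% and 0.441%. The G2/M list includes Cdk1 and Cks1b, so its share is not separate from their ratios.

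**Figure D5:**
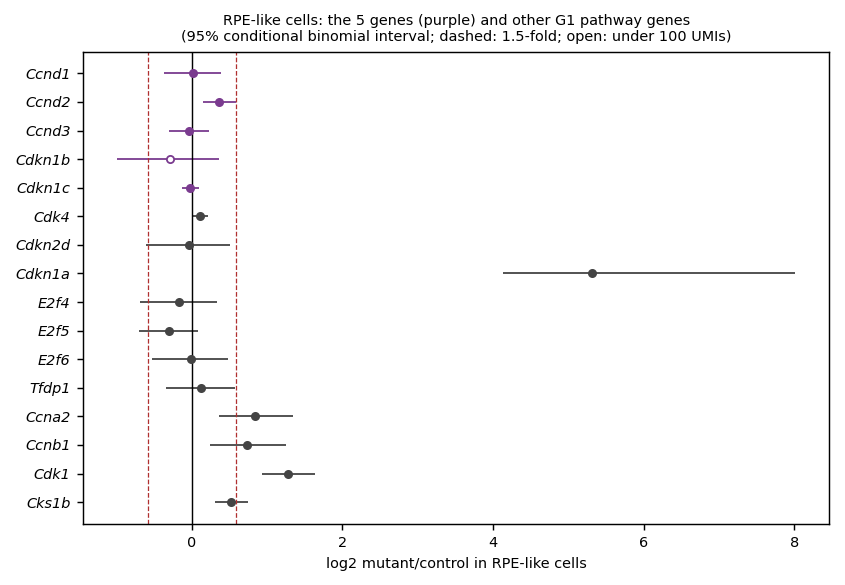
Log2 ratio of mutant to control in RPE-like cells for the 5 genes (purple, Cdkn1b open with 84 UMIs) and 11 others (grey). The 11 are the other genes of the G1 pathway, S phase and mitosis with at least 100 UMIs. Bars are 95% conditional binomial intervals and dashed lines mark 1.5-fold. Cdkn1a (5.31), Cdk1 (1.27), Ccna2 (0.84) and Ccnb1 (0.74) lie past the right line, while Ccnd1, Ccnd3 and Cdkn1c lie between -0.03 and 0.02, and Ccnd1 moves to between -0.70 and -0.40 under limits on UMIs and mitochondrial share, weighting by cell and naming cell by cell.

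In progenitor-like cells 26 of the 29 pathway genes had enough UMIs and none was called in either direction, with a median ratio of 0.02. Cdk4 was the most abundant of those named here, with 984 and 915 CPM (-0.11, -0.14 to -0.07). E2f4 had a ratio of -0.25 (-0.38 to -0.13) and Skp2, which targets p27Kip1 for breakdown, of 0.19 (0.03 to 0.34). In periocular mesenchyme-like cells 27 pathway genes were tested and 2 were called lower, Cdkn1a and E2f7, against 1.73% of all genes called. Ccna2 was called lower in ganglion cell-like cells (-0.66, among 12 tested, with 1.79% of all genes called). In melanocyte-like cells (7 tested, 3.42%) Ccna2 was called lower (-0.76) and Tfdp1 higher (1.17). E2f4 was called lower in endothelium-like cells (-0.60, 9 tested, 2.38%). In Schwann or neural crest glia-like cells Cdk1 (-0.66) and Cks1b (-0.59) were called lower, among 3 genes tested, with 5.08% of all genes called. In red blood cell-like cells Cdk4 (0.71), Cdk1 (0.65) and Cks1b (0.83) were called higher among 6 tested, in the class with 33.7% of genes called. None was called in neurogenic precursor-like, amacrine or horizontal-like, ciliary margin-like, pericyte-like, macrophage-like or surface ectoderm-like cells.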

How the data were processed

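The deposited matrices hold raw UMI counts for each gene and barcode, which the authors made with Cell Ranger 7.1.0 against mm10 (per the submitters' processing notes, which also name Seurat 4.1.1). No normalization had been applied. The 5 genes and the lists of 29 pathway genes and 121 class markers were chosen with earlier results of these data known.

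Cells with at least 200 genes and at most 15% mitochondrial UMIs were kept, and doublets marked by Scrublet (scanpy 1.11.5, expected rate 5%) were removed: 51 control (0.924%) and 74 mutant barcodes (1.16%). The libraries were integrated by anchors in Seurat 5.3.0 (R 4.3.3) on 2000 variable features, without the 5 genes, the pathway genes, the phase lists and sex-linked genes, with 30 dimensions and resolution 0.8. Candidate names for a cluster were the classes with a mean marker z score of at least 0.75 and at least 3 detected markers. The cluster took the candidate with the most markers among its 10 leading genes, and ties went to the higher z score. It stayed unnamed when shallow with under 2 of the markers of that class among its 10 leading genes. Counts were summed for each class and library and scaled to 1000000 UMIs of the class (CPM). Poisson, binomial and conditional binomial intervals are exact at 95% (scipy 1.17.1, Python 3.11.15), and the procedure was tested on simulated data. UMIs of 1 library are not independent cultures or animals.

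The genes named for likeness were the 3 with the highest Pearson correlation in control among genes with at least 500 UMIs. Pathway genes were named among those with at least 100 UMIs in the class described. The single clusters and the co-detection in ganglion cell-like cells were chosen for description after their values were seen. Alternatives covered doublets, features, integration, resolution, limits on UMIs and mitochondrial share, a naming rule per cell, weighting, embryo sex, thinning, phase lists and shared barcodes.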

Additional observations from a re-analysis of the deposited data

Results flagged for a closer look

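Ratios of mutant to control that lay on opposite sides of 0 in a pair of classes, each with an interval without 0, were looked at again. No difference between classes was tested. Ccnd1 was higher in red blood cell-like cells (0.76) and lower in macrophage-like cells (-0.46). Ccnd2 was higher in melanocyte-like cells (0.69) and lower in surface ectoderm-like cells (-0.85). Ccnd3 was higher in red blood cell-like cells (0.78) and lower in ganglion cell-like cells (-0.48). Cdkn1c was higher in red blood cell-like cells (0.82) and lower in amacrine or horizontal-like cells (-0.36). In red blood cell-like cells the median ratio of all genes tested was 0.42.

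The 3 unnamed clusters, which no comparison used, also held the 5 genes above the limit that 3 counts allow. Their control cells had 334 CPM of Ccnd1, 251 of Ccnd2, 94.9998 of Ccnd3, 48.6 of Cdkn1b and 1056 of Cdkn1c. Their mutant cells had 311, 186, 105, 38.1 and 1093 CPM in the same order. These cells had median depths of 760 and 775 UMIs.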

How the results depend on the processing

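Each genotype was 1 library, so there was no replicate to leave out. No paired analysis was possible because the 2 libraries carry no replicate numbers to pair and no result comes from a test. Of 1185 recomputed values, 954 stayed within their counting interval, 219 moved beyond it, some of them across 0, and 12 turned the sign of a value counted as called. Leaving out barcodes found in both libraries, an alternative chosen after seeing the data, moved none.

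Values below are log2 ratios unless given as percent or points, with RPE for RPE-like cells and other classes shortened likewise, and class contrasts and percentages in control. The mutant over control ratio of Ccnd1 in RPE, 0.02 as reported, was -0.40 with an upper limit of 20000 UMIs, -0.49 with one of 2000 UMIs (the limit in the study's methods), -0.55 with a mitochondrial limit of 5%, -0.70 with classes by a rule per cell, -0.54 as a mean over cells, -1.07 in cells of female and 0.67 in cells of male embryos. That of Ccnd2 in RPE was 0.99 with the limit of 2000 UMIs, 0.019 with the mitochondrial limit and 0.62 as a mean over cells. With the limit of 2000 UMIs the RPE ratios were -0.41 for Ccnd3, 0.51 for Cdkn1b and -0.38 for Cdkn1c, which was 0.10 with the limit of 20000 UMIs and -0.17 with the mitochondrial limit. In progenitors Ccnd1 was 0.11 with the limit of 20000, -0.20 with that of 2000 UMIs and 0.14 as a mean over cells. Cdkn1c was -0.19, -0.46 and -0.16 in the same order and 0.034 in female cells. Ccnd2 was -0.61 with the mitochondrial limit and -0.63 in female cells, and with the limit of 2000 UMIs Ccnd3 was -0.70 and Cdkn1b 0.10.

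The direction of 4 called ratios changed. In red blood cells Cdkn1c was -0.015 with doublets kept in, -0.021 with the limit of 20000, -1.21 with that of 2000 UMIs and -0.40 as a mean over cells. Ccnd3 there was -0.88 with the limit of 2000 UMIs and -0.094 as a mean, and Ccnd1 -0.33, -0.058 and, by the rule per cell, -0.30. Ccnd2 in melanocytes was -1.99 with the limit of 2000 UMIs and -0.32 as a mean over cells. The cause was not tested.

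Among class contrasts, Ccnd2 in mesenchyme over progenitors (2.12) was 1.73 with all variable features, 1.74 without integration, 1.75 at resolution 0.4, 2.30 and 1.49 with limits of 20000 and 2000 UMIs, 1.92 by the rule per cell, 1.62 as a mean over cells and 2.54 in male cells. Cdkn1c in muscle precursors over progenitors (4.51) was 4.36 with all variable features, without integration and at resolution 0.4, 3.09 with the limit of 20000 UMIs, 4.59 with the mitochondrial limit, 4.60 by the rule per cell, 4.34 as a mean and 4.64 in female cells. Ccnd1 in progenitors over ganglion cells (3.57) was 4.08 at resolution 1.6, 2.66 with the limit of 2000 UMIs, 3.86 with the mitochondrial limit, 4.60 by the rule per cell, 2.86 as a mean and 4.68 in male cells. Ccnd3 in muscle precursors over progenitors was 1.72 by the rule per cell. Cdkn1b in ganglion cells over mesenchyme reversed to -3.04 with the limit of 2000 UMIs and was 0.43 as a mean. The Ccnd1 percent in progenitors was 77.3 with all variable features, without integration and at resolution 0.4, 81.5 and 72.9 with limits of 20000 and 2000 UMIs, 78.0 by the rule per cell and 80.0 in male cells. The Cdkn1c percent in ganglion cells was 87.0 with all variable features, 80.0 at resolution 1.6, 98.0 with the limit of 2000 UMIs, 82.6 with the mitochondrial limit, 79.4 by the rule per cell, 87.1 in female and 79.5 in male cells. The Ccnd2 percent in RPE was 43.2 with the mitochondrial limit.

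For the groups by proliferation genes in progenitors, thinning to 2000 UMIs gave Ccnd2 -1.64 in control and -0.52 in the mutant and Cdkn1b 0.32 in the mutant. Thinning to 5000 UMIs gave Ccnd1 -0.17 in control and -0.045 in the mutant, Ccnd2 -0.38 in control, Ccnd3 -0.30 in the mutant and co-detection differences of -6.41 and -6.57 points for Cdkn1c. The S list alone gave Ccnd1 0.19 and Cdkn1b 0.44 in control and Ccnd2 -0.60 and Cdkn1b 0.27 in the mutant, and the G2/M list alone gave Ccnd1 -0.049 in the mutant. With a minimum of 50 UMIs, 11 pathway genes were higher in RPE in place of 7.

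Depth limited Cdkn1b most: 6 of 15 classes had 100 UMIs, and muscle precursors had 3 in each library.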
